A study of Mus musculus with 23 samples.

Results

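The response of the quadriceps, a thigh muscle made mostly of fast fibres in mice, to 14 days of corticosterone was described in male mice across the autosomal genes. These were 12 of the 23 mice sequenced, 6 with a corticosterone pellet (M2, M4, M6, M8, M10 and M12) and 6 with a vehicle pellet (M1, M3, M5, M7, M9 and M11), chosen by the letter and number in their labels. All were C57BL/6J mice (C57Bl6 in the labels) of 8 to 10 weeks. The corticosterone pellet held 50 mg corticosterone and 50 mg cholesterol and the vehicle pellet 100 mg cholesterol, so that both groups carried cholesterol under the skin. Muscles were taken after a 5 h fast under isoflurane, and the time of day was not given in the sources used here. Bulk RNA of each muscle was sequenced, and fewer cells of a type and less RNA per cell cannot be told apart in such values. The other 11 mice of the series were female and entered only the shared estimate of spread and the test of a difference between the sexes.

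Corticosterone, the glucocorticoid that mouse adrenals release most of, binds the glucocorticoid receptor, which moves into the nucleus, binds DNA at response elements and raises or lowers the transcription of nearby genes. In skeletal muscle, glucocorticoids are known for wasting of fast fibres, in which FoxO and Krüppel-like factors drive genes of protein breakdown and insulin signalling is blunted. In immune cells and fibroblasts they are known for lowering inflammatory and matrix genes.

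Depth hardly differed between groups. Libraries of vehicle-treated mice held 20904150 to 21474083 counts on genes and those of corticosterone-treated mice 21294780 to 21984477. Expression is given in CPM, which are counts per 1000000 counts of the library after scaling with TMM (trimmed mean of M values) factors, and 3 counts correspond to at most 0.165 CPM. Changes are log2 fold changes (log2FC) of corticosterone over vehicle with their standard error (SE) from edgeR's quasi-likelihood test, and a gene was said to rise or fall where its p-value, adjusted over 13049 tested genes, lay under 0.01. The groups of a gene that is said to rise or fall did not overlap unless overlap is stated. Markers of skeletal muscle fibres summed to 153753 to 197827 CPM in vehicle-treated and 183584 to 307016 CPM in corticosterone-treated mice, so the defining genes of the labelled tissue were abundant in every mouse. Some libraries stood apart. The summed level of 18 hepatocyte markers was 2028 CPM in M9, 3373 CPM in M8 and 1999 CPM in M12, and between 60.6 and 474 CPM in the other male mice, so counts of genes below were repeated without these 3 mice. Slow fibre transcripts also differed widely between mice of the same group, as given with the fibre genes.

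Corticosterone changed many of the autosomal genes tested. Of 12613 genes, 3333 passed the test (26.4%), 1678 higher (13.3%) and 1655 lower (13.1%). All corticosterone-treated mice lay above all vehicle-treated mice for 10.9% of genes and below them for 11.1%. Falls were larger than rises by their median. The median log2FC was -0.79 among genes that fell and 0.54 among genes that rose, and 599 genes fell but 356 rose by more than 1 on the log2 scale. By more than 3, the numbers were close, with 42 falls and 44 rises. Rises were more frequent among abundant genes, with 718 rises and 314 falls among the 3153 genes of highest mean CPM, and 178 rises and 440 falls among the 3154 of lowest. The median log2FC over all autosomal genes was -0.02, against which the medians of gene lists below can be read. Counts of these lists can be read against the shares of 13.3% higher and 13.1% lower.

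**Figure D1:**
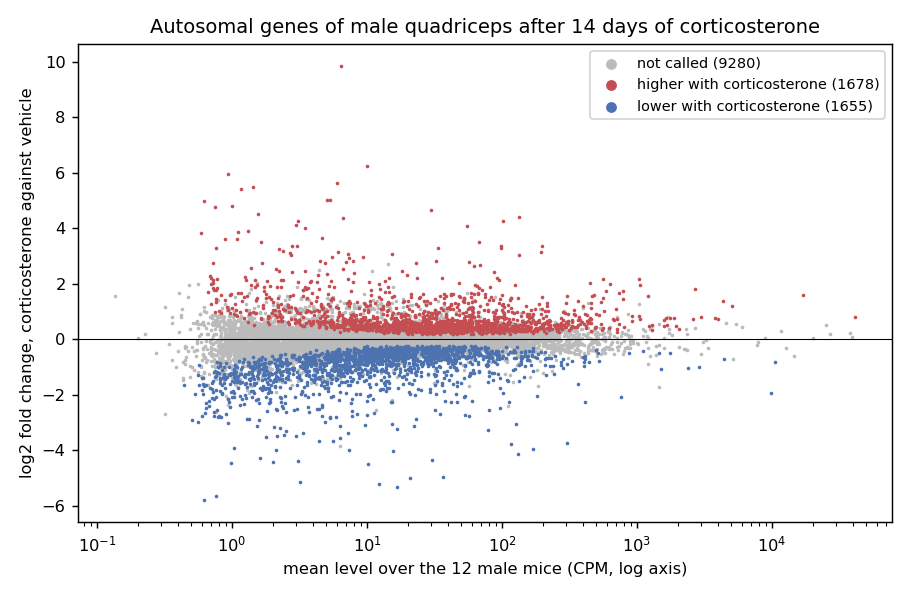
Log2 fold change (vertical) against the mean level in CPM over the 12 male mice (horizontal, log axis) for 12613 autosomal genes, 1 point a gene. The 1678 genes that rose (red) are more frequent among genes of high level, and the 1655 that fell (blue) among genes of low level.

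By type of gene, 26.7% of 11703 protein-coding genes passed, 32.8% of 238 lincRNA genes, 26.0% of 181 antisense genes and 12.7% of 197 processed pseudogenes. Over all autosomal genes 13.3% rose and 13.1% fell, 26.4% in all. Of 42 ubiquitin-specific protease genes 12 rose and 1 fell (31.0% passed), and of 35 collagen genes 1 rose and 18 fell (54.3%). Of 22 G protein-coupled receptor genes 3 rose and 6 fell (40.9%). Some other families passed less often than all autosomal genes. Of 306 zinc finger protein genes 44 rose and 15 fell (19.3%), and of 206 solute carrier genes 21 rose and 25 fell (22.3%).

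**Figure D2:**
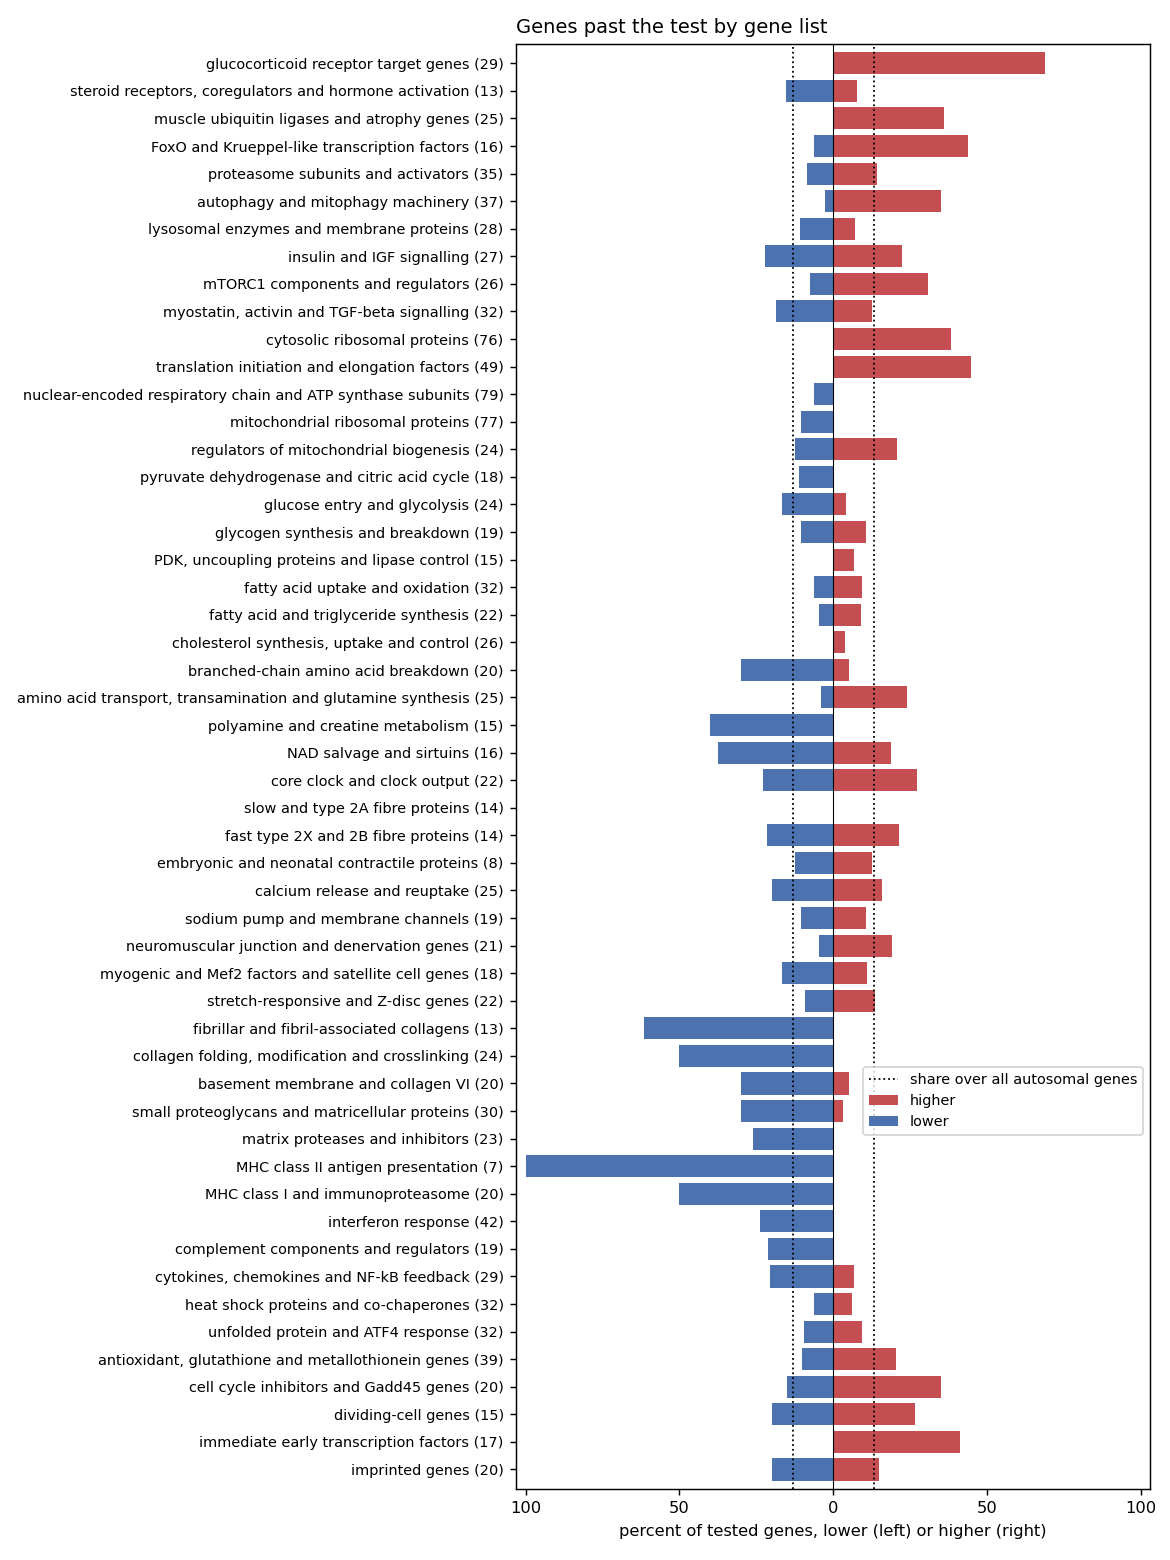
Percent of the tested genes of each list that rose (red, right) or fell (blue, left), with the number of tested genes in parentheses and dotted lines at the shares over all autosomal genes, 13.3% and 13.1%. Among lists of more than 6 tested genes, those of MHC class II genes and glucocorticoid receptor targets have the longest bars to the left and to the right.

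The known target genes of the glucocorticoid receptor held the largest share of rises among lists of more than 6 tested genes. Of them 20 of 29 tested genes rose and none fell by edgeR, with a median log2FC of 1.45. The other tools, DESeq2 and limma-voom, also gave 0 falls, as did an unadjusted p under 0.05. The 20 that rose were also those in which the groups did not overlap. Fkbp5 (ENSMUSG00000024222, chromosome 17, 28399094 to 28517527, minus strand, GRCm38) encodes a co-chaperone that holds the receptor in a low-affinity state and is induced by it. Its level was 22.6 to 58.7 CPM (median 31.4) in vehicle-treated mice and 292 to 421 CPM (median 365) in corticosterone-treated mice (log2FC 3.36, SE 0.30, adjusted p = 6.73e-08), and the lowest treated mouse lay far above the highest control. Cdkn1a, which encodes the cell cycle inhibitor p21, was at 9.44 to 13.98 CPM (median 11.6) in vehicle-treated mice and 192 to 329 CPM (median 248) in corticosterone-treated mice (log2FC 4.43, SE 0.26, adjusted p = 3.73e-10). The metallothioneins, small proteins that bind zinc and copper, rose together. Mt2 moved from a median of 6.36 CPM (3.15 to 9.11) to 94.997 CPM (45.3 to 209), a log2FC of 4.097 (SE 0.38, adjusted p = 8.68e-08), and Mt1 moved from a median of 18.6 CPM (7.92 to 27.04) to 113 CPM (67.1 to 225), a log2FC of 2.695 (SE 0.35, adjusted p = 4.46e-06). Lcn2, which encodes the secreted iron carrier lipocalin 2, moved from a median of 1.60 CPM (0.763 to 5.79) to 49.8 CPM (29.1 to 121), a log2FC of 4.68 (SE 0.48, adjusted p = 2.59e-07).

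Other well-known targets rose by less. Sgk1, a kinase of ion transport and cell survival, was at 84.2 to 249 CPM (median 131) in vehicle-treated mice and 391 to 563 CPM (median 436) in corticosterone-treated mice (log2FC 1.55, SE 0.34, adjusted p = 0.00112). The transcription factor genes Zbtb16 (log2FC 0.96, adjusted p = 0.00225) and Klf9 (log2FC 0.66, adjusted p = 3.74e-05) also rose. Of the list of steroid receptors, coregulators and hormone activation 1 of 13 tested genes rose and 2 fell, with a median log2FC of 0.10. There were 0 rises without M1 or M10 and also without M8, M9 and M12 together. Without M3 and also without M8, M9 and M12 together the test gave 1 fall. Nr3c1, the glucocorticoid receptor, was at 68.4 to 106 CPM (median 75.4) in vehicle-treated mice and 69.8 to 85.9 CPM (median 75.6) in corticosterone-treated mice (log2FC -0.07, SE 0.12, adjusted p = 0.688), and the ranges overlapped. Nr3c2, the mineralocorticoid receptor, fell (log2FC -0.46, adjusted p = 0.00316, up to 0.0105 without M3). Esr1, the oestrogen receptor alpha, fell from a median of 28.6 CPM (26.2 to 35.4) to 17.3 CPM (11.4 to 18.7), a log2FC of -0.87 (SE 0.13, adjusted p = 1.70e-05). Fkbp4, the co-chaperone that passes the receptor to the nucleus, rose slightly (log2FC 0.34, adjusted p = 0.00411, up to 0.011 without M1 or M10). Hsd11b1, which regenerates active glucocorticoid inside cells, did not pass (log2FC 1.31, adjusted p = 0.057) and was at 8.35 to 20.9 CPM (median 16.03) in vehicle-treated mice and 16.3 to 69.8 CPM (median 32.4) in corticosterone-treated mice.

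Promoters of some genes that rose are shown because they hold letters that match the core of the receptor's element. RefSeq gave a promoter for 9561 of the tested autosomal genes (GRCm38.p6), from 250 bases before to 50 bases after the start, and the core ACANNNTGT was searched on both strands. It was in 5.29% of all these promoters, in 6.49% of those of genes that rose, in 4.74% of those of genes that fell and in 5 of 26 target genes with a promoter, namely Sgk1, Mt1, Lcn2, Glul and Map3k6. A match describes letters and not a bound site. The last 220 bases before the start are printed for 4 of these and for Trim63, with the core in capitals. For Sgk1, which has more than 1 start in RefSeq, a single promoter is shown. These matches overlapped none of the other motifs searched, which were an E-box, a Y box and a part of the sterol response element.
Lcn2 (chr2:32387740-32387959, minus strand, capitals starting 152 bases before the start): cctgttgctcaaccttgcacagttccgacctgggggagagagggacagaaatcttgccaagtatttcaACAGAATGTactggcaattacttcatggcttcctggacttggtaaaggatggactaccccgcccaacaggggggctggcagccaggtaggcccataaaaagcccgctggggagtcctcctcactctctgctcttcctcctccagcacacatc
Mt1 (chr8:94178869-94179088, plus strand, capitals starting 92 bases before the start): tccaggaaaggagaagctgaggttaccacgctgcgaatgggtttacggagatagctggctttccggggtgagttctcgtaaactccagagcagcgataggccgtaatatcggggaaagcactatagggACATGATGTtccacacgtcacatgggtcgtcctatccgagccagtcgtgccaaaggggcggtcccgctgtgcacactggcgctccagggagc
Sgk1 (chr10:21993670-21993889, plus strand, capitals starting 186 bases before the start): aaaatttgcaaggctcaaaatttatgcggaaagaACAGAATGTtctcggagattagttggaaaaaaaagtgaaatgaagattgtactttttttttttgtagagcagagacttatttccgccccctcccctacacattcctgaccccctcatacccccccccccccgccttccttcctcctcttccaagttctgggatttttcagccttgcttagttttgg
Glul (chr1:153899709-153899928, plus strand, capitals starting 25 bases before the start): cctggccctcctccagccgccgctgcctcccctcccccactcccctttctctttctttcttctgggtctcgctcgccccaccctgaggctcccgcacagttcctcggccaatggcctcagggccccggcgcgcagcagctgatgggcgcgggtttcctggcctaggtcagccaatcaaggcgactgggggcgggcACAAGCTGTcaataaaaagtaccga
Trim63 (chr4:134314900-134315119, plus strand, capitals starting 206 bases before the start): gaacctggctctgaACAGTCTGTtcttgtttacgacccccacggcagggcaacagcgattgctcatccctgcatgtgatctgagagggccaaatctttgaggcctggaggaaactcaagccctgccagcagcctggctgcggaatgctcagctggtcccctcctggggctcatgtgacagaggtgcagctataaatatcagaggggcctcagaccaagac

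Genes of muscle protein breakdown were among those that rose. In the list of muscle ubiquitin ligases and atrophy genes 9 of 25 tested genes rose and none fell by edgeR, with a median log2FC of 0.14. By DESeq2 there were 0 and by limma-voom 1 fall, and 1 gene was lower at an unadjusted p under 0.05. Trim63 (ENSMUSG00000028834, chromosome 4, 134315120 to 134329629, plus strand), which encodes the ligase MuRF1 that marks myosin for the proteasome, was at 361 to 493 CPM (median 434) in vehicle-treated mice and 886 to 2269.8 CPM (median 1782) in corticosterone-treated mice (log2FC 1.97, SE 0.31, adjusted p = 3.53e-05). Fbxo32, which encodes the F-box protein atrogin-1, was at 460.4 to 964 CPM (median 512) in vehicle-treated mice and 1268 to 2618 CPM (median 1772) in corticosterone-treated mice (log2FC 1.57, SE 0.33, adjusted p = 0.000789). Both were lowest among treated mice in M12, and neither overlapped with the controls. Fbxo40, another muscle F-box gene, kept a value near 0 (log2FC -0.04, adjusted p = 0.852). Without M8, M9 and M12, 6 of the list passed.

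Transcription factors known to drive these ligases were also among the rises, and of the FoxO and Krüppel-like genes 7 of 16 tested genes rose and 1 fell, with a median log2FC of 0.55. Foxo1 (ENSMUSG00000044167, chromosome 3, 52268336 to 52353221, plus strand) was at 15.4 to 19.5 CPM (median 16.3) in vehicle-treated mice and 97.7 to 119 CPM (median 104) in corticosterone-treated mice (log2FC 2.66, SE 0.23, adjusted p = 5.11e-08), a narrow range in either group. Foxo3, another FoxO factor, moved from a median of 24.99 CPM (22.02 to 26.3) to 72.1 CPM (56.5 to 87.8), a log2FC of 1.54 (SE 0.12, adjusted p = 2.09e-08). Among Krüppel-like factors, Klf10, a TGF-beta induced repressor, rose from a median of 27.4 CPM (21.7 to 33.01) to 107 CPM (67.8 to 132), a log2FC of 1.92 (SE 0.24, adjusted p = 3.30e-06). Klf15, a receptor target that drives amino acid breakdown, rose from a median of 38.2 CPM (27.7 to 43.8) to 86.1 CPM (62.6 to 99.02), a log2FC of 1.18 (SE 0.14, adjusted p = 1.17e-06). Foxo6 went the other way, from a median of 4.65 CPM (3.90 to 6.39) to 0.873 CPM (0.528 to 1.16), a log2FC of -2.53 (SE 0.38, adjusted p = 2.34e-05). Its antisense RNA Foxo6os also fell (log2FC -3.99, adjusted p = 2.47e-06). Counting used the strand, so that the reads of these partners were kept apart.

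**Figure D3:**
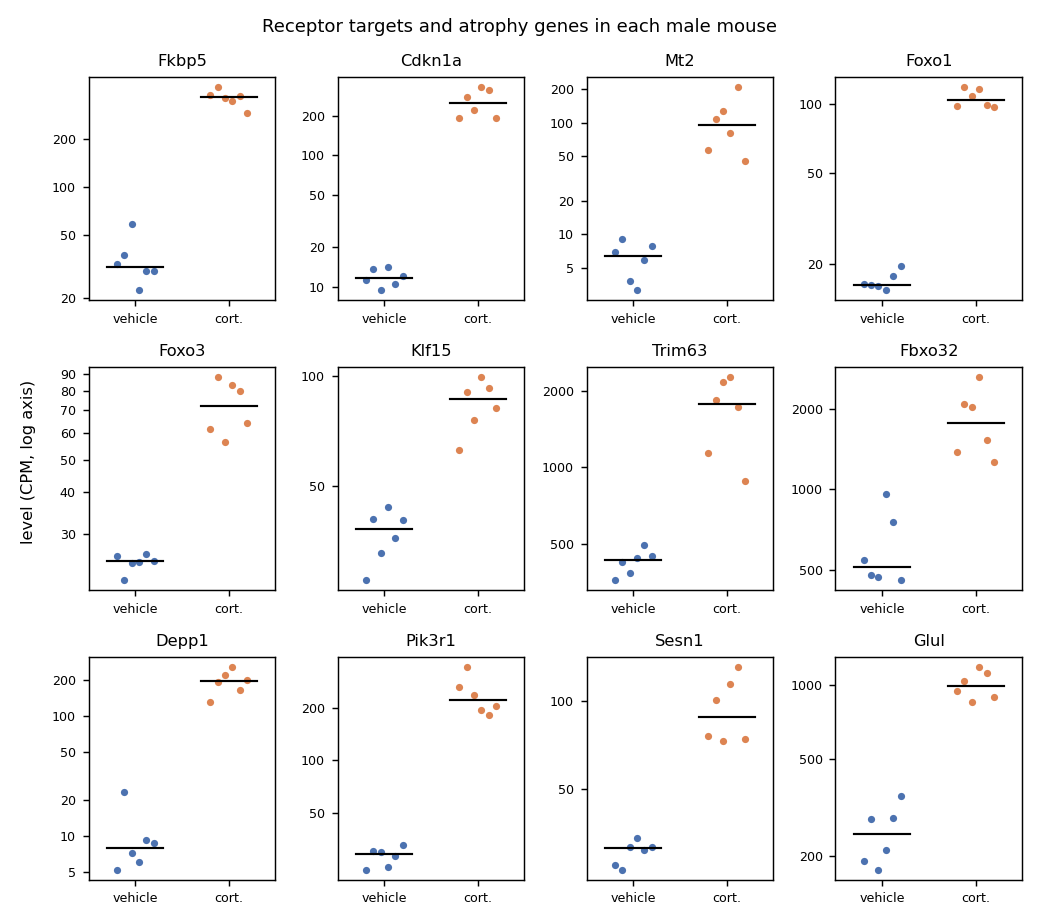
Level in CPM (log axis) of 12 genes of receptor response and muscle wasting in each of 6 vehicle-treated (blue) and 6 corticosterone-treated (orange) male mice, with the median as a line. In every panel all treated mice lie above all vehicle-treated mice, with the widest gap for Cdkn1a.

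Genes of the proteasome itself passed slightly less often than all autosomal genes (22.9% against 26.4%). Of 35 tested genes 5 rose and 3 fell, with a median log2FC of 0.01. The rises numbered 3 without M4 or M11 and also without M8, M9 and M12 together. The lid and base subunits Psmd4 (log2FC 0.62, adjusted p = 0.000107) and Psmd8 (log2FC 0.58, adjusted p = 0.00012) rose, and the core subunits Psma5 (log2FC -0.62, adjusted p = 5.97e-05) and Psmb2 (log2FC -0.45, adjusted p = 4.51e-05) fell. The other calls were Psmc5 (log2FC 0.47), Psmd2 (log2FC 0.33, groups overlapping), Psme3 (log2FC 0.23) and Psmd14 (log2FC -0.33). Autophagy genes leaned upwards, and 13 of 37 tested genes rose and 1 fell, with a median log2FC of 0.20. Depp1, a FoxO-induced regulator of autophagy, was at 5.27 to 23.5 CPM (median 8.04) in vehicle-treated mice and 130.5 to 255 CPM (median 195) in corticosterone-treated mice (log2FC 4.27, SE 0.47, adjusted p = 7.02e-07). Map1lc3a, a coat protein of the autophagosome, moved from a median of 197 CPM (160.4 to 236) to 522 CPM (378 to 714), a log2FC of 1.38 (SE 0.17, adjusted p = 2.01e-06). Gabarapl1, of the same protein family, (log2FC 0.13, adjusted p = 0.524) and the mitophagy receptor Bnip3 (log2FC 0.38, adjusted p = 0.016) did not pass, although Bnip3 did by DESeq2 and limma-voom. Wipi1, which binds the growing autophagosome membrane, fell (log2FC -0.60, adjusted p = 0.00108). Among lysosomal genes 2 of 28 tested genes rose and 3 fell, with a median log2FC of 0.01. There was 1 rise without M8, M9 and M12 together, and 4 without M9. The protease gene Ctsl, a marker of muscle wasting, rose (log2FC 0.81, adjusted p = 0.000614), and so did the membrane protein gene Lamp1 (log2FC 0.33, adjusted p = 0.00167). Ctsk, a collagen-cleaving cathepsin of fibroblasts and osteoclasts, fell from a median of 9.20 CPM (6.33 to 9.88) to 1.21 CPM (0.748 to 1.40), a log2FC of -2.96 (SE 0.27, adjusted p = 7.34e-08), as did the cathepsin gene Ctsh (log2FC -1.11, adjusted p = 0.00173, groups overlapping).

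Insulin and growth signalling changed at nodes of opposite function. Of the insulin and IGF genes 6 of 27 tested genes rose and 6 fell, with a median log2FC of 0.04. Pik3r1, the regulatory subunit of the kinase PI3K, rose to a multiple of its control level, from a median of 29.2 CPM (23.8 to 32.95) to 221 CPM (181 to 342), a log2FC of 3.06 (SE 0.23, adjusted p = 9.22e-09). Irs1, the docking protein between receptor and kinase, fell from a median of 57.2 CPM (37.6 to 77.9) to 22.2 CPM (16.1 to 28.1), a log2FC of -1.46 (SE 0.30, adjusted p = 0.000596). Grb14, an adaptor that restrains the insulin receptor, also fell (log2FC -2.25, adjusted p = 1.59e-05). The IGF-binding proteins diverged. Igfbp3, the main carrier of IGF in blood, rose from a median of 21.8 CPM (15.5 to 26.1) to 61.6 CPM (48.5 to 101), a log2FC of 1.65 (SE 0.21, adjusted p = 2.82e-06). Igfbp5, the main one of muscle cells, fell from a median of 573 CPM (281 to 1232) to 121 CPM (61.8 to 262), a log2FC of -2.27 (SE 0.40, adjusted p = 0.000135). Igf1 itself was at 20.1 to 22.7 CPM (median 21.3) in vehicle-treated mice and 4.91 to 18.5 CPM (median 9.64) in corticosterone-treated mice, without overlap, but did not pass at the threshold (log2FC -1.10, SE 0.35, adjusted p = 0.0157). It passed by DESeq2 and limma-voom, without M8, and without M8, M9 and M12 (log2FC -1.52).

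Inhibitors of mTORC1, the kinase complex that couples nutrients to protein synthesis, were among the larger rises of its list, in which 8 of 26 tested genes rose and 2 fell, with a median log2FC of 0.10. Without M2, M4, M5, M6, M7, M9 or M10 the test gave 1 fall. Ddit4, which encodes REDD1 and holds back the complex, was at 5.77 to 49.98 CPM (median 11.7) in vehicle-treated mice and 108 to 279 CPM (median 171) in corticosterone-treated mice (log2FC 3.37, SE 0.55, adjusted p = 5.99e-05). Sesn1, a sestrin that senses leucine, moved from a median of 31.4 CPM (26.6 to 34.02) to 88.1 CPM (72.9 to 130.3), a log2FC of 1.64 (SE 0.17, adjusted p = 3.90e-07). Eif4ebp1, the repressor of cap-dependent translation that the complex inactivates, rose from a median of 59.3 CPM (39.8 to 83.7) to 164 CPM (101 to 259), a log2FC of 1.48 (SE 0.23, adjusted p = 4.42e-05). Fnip1 (log2FC -0.93, adjusted p = 8.67e-06) and its partner folliculin, Flcn (log2FC -0.52, adjusted p = 0.00509, up to 0.0134 without M2, M4, M5, M6, M7, M9 or M10), fell. Of the myostatin, activin and TGF-beta genes 4 of 32 tested genes rose and 6 fell, with a median log2FC of -0.22. Mstn, myostatin, the secreted brake on muscle growth, did not pass (log2FC 0.47, adjusted p = 0.237), with 41.6 to 102 CPM (median 75.9) in vehicle-treated mice and 63.8 to 138 CPM (median 109.8) in corticosterone-treated mice. The receptor genes Acvr1b (log2FC 1.44, adjusted p = 1.81e-05) and Tgfbr1 (log2FC 0.67, adjusted p = 0.000152) rose. The signal transducer gene Smad3 fell from a median of 113 CPM (81.8 to 137) to 48.2 CPM (28.5 to 55.5), a log2FC of -1.33 (SE 0.17, adjusted p = 5.25e-06). Fstl1, a secreted protein of fibroblasts, fell from a median of 102 CPM (69.8 to 124) to 21.97 CPM (15.2 to 25.1), a log2FC of -2.23 (SE 0.24, adjusted p = 6.33e-07).

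Genes of the translation machinery that passed rose, each by a small amount. Of the cytosolic ribosomal protein genes 29 of 76 tested genes rose and none fell by edgeR, with a median log2FC of 0.33. DESeq2, limma-voom and an unadjusted p under 0.05 gave 0 falls as well. The rises numbered 16 without M8, M9 and M12 together. Values above 0 were found for 73 of the 76, yet the groups separated for only 11. Rps2 (log2FC 0.74, adjusted p = 0.000107) and Rplp0 (log2FC 0.65, adjusted p = 0.000334) were among the larger rises, and Rplp0 had 588 to 916 CPM (median 662) in vehicle-treated mice and 987 to 1225 CPM (median 1125) in corticosterone-treated mice. Among initiation and elongation factors 22 of 49 tested genes rose and none fell by edgeR, with a median log2FC of 0.27. At an unadjusted p under 0.05, 2 genes were lower, and DESeq2 gave 0 falls and limma-voom 0. The initiation factor subunit gene Eif3f rose from a median of 167 CPM (155 to 176) to 257 CPM (237 to 307), a log2FC of 0.67 (SE 0.08, adjusted p = 3.20e-06). The elongation factor gene Eef2 rose (log2FC 0.49, adjusted p = 0.00134), and so did Eef2k, the kinase that inactivates it (log2FC 0.77, adjusted p = 0.000816).

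Mitochondrial genes leaned downwards by their median log2FC, with few calls. For the nuclear-encoded respiratory chain 5 of 79 tested genes fell (6.33%), less than the 13.1% over all autosomal genes. None rose by edgeR, and the median log2FC was -0.36. Likewise 0 rises were found by DESeq2, by limma-voom and at an unadjusted p under 0.05. There were 2 falls without M8, M9 and M12 together, and 11 without M9. At an unadjusted p under 0.05, 42 were lower, and 73 of 79 had a value below 0. Cox7a1, the muscle form of a cytochrome oxidase subunit, was at 215 to 419 CPM (median 291) in vehicle-treated mice and 92.9 to 188 CPM (median 159.8) in corticosterone-treated mice (log2FC -0.97, SE 0.23, adjusted p = 0.00248), and Cox7a2 fell as well (log2FC -0.77, adjusted p = 0.00124). The other 3 were Ndufab1 (log2FC -0.61, groups overlapping), Atp5g3 (log2FC -0.76, groups overlapping) and Atp5j (log2FC -0.69). The falls of the respiratory chain list came to 20 with a slow and type 2A fibre score as a covariate. The share of reads from the mitochondrial genome was 7.08% to 10.7% in vehicle-treated and 3.92% to 8.62% in corticosterone-treated mice. Of the mitochondrial ribosomal protein genes 8 of 77 tested genes fell (10.4%, also under 13.1%), among them Mrpl3 (log2FC -0.69, adjusted p = 0.00126). None rose by edgeR, and the median log2FC was -0.12. DESeq2 gave 4 rises and limma-voom 5, and 5 genes were higher at an unadjusted p under 0.05. Without M2, M3, M5 or M12 the test gave 1 rise. Of regulators of mitochondrial biogenesis 5 of 24 tested genes rose and 3 fell, with a median log2FC of -0.10. The rises numbered 3 without M8, M9 and M12 together. There was 1 fall without M8, M9 and M12 together. The mitochondrial RNA polymerase gene Polrmt rose (log2FC 0.39, adjusted p = 0.000551) and the nuclear receptor gene Esrra fell (log2FC -0.65, adjusted p = 0.00241), while the coactivator gene Ppargc1a did not pass (log2FC -0.36, adjusted p = 0.122). For pyruvate dehydrogenase and the citric acid cycle 2 of 18 tested genes fell (11.1%, also under 13.1%) and none rose by edgeR, with a median log2FC of -0.30. The falls were those of the dehydrogenase subunits Dlat (log2FC -0.61, adjusted p = 0.00152, groups overlapping) and Pdhx (log2FC -0.46). At an unadjusted p under 0.05, 1 gene was higher, and DESeq2 gave 0 rises and limma-voom 1.

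Fuel use genes gave a similar picture of small shifts with single large ones. In glucose entry and glycolysis 1 of 24 tested genes rose and 4 fell, with a median log2FC of -0.28, with 22 of 24 values below 0. Without M3, M4, M5, M7, M8, M9, M11 or M12 and also without M8, M9 and M12 together the test gave 0 rises. The falls numbered 2 without M3 or M8 and also without M8, M9 and M12 together. Pfkm, the muscle phosphofructokinase, fell from a median of 3761 CPM (3449 to 4180.3) to 1987 CPM (1435 to 2448), a log2FC of -0.97 (SE 0.21, adjusted p = 0.000811). Pgam2, the muscle phosphoglycerate mutase, fell from a median of 2029 CPM (1853 to 2194) to 914 CPM (629 to 1424), a log2FC of -1.07 (SE 0.18, adjusted p = 9.84e-05). The insulin-responsive glucose transporter gene Slc2a4 did not pass (log2FC -0.30, adjusted p = 0.0119), and the transporter gene Slc2a3 rose (log2FC 1.30, adjusted p = 0.00664, up to 0.0219 without M3, M4, M5, M7, M8, M9, M11 or M12, groups overlapping). In glycogen metabolism 2 of 19 tested genes rose and 2 fell, with a median log2FC of -0.05. There were 0 falls without M8, M9 and M12 together, and 1 without M5 or M8. Ppp1r3c, which brings glycogen synthase to its activating phosphatase, rose from a median of 398 CPM (213 to 587) to 1663 CPM (1142 to 2344), a log2FC of 2.16 (SE 0.47, adjusted p = 0.000977). The branching enzyme gene Gbe1 rose from a median of 36.7 CPM (26.9 to 60.99) to 69.9 CPM (64.1 to 125), a log2FC of 0.90 (SE 0.21, adjusted p = 0.00157). Among pyruvate dehydrogenase kinases, uncoupling proteins and lipase control 1 of 15 tested genes rose and none fell by edgeR, with a median log2FC of 0.18. By DESeq2 there were 0 and by limma-voom 0 falls, and 2 genes were lower at an unadjusted p under 0.05. Without M1, M2, M4, M7, M9 or M11 and also without M8, M9 and M12 together the test gave 0 rises. The gene that rose was Slc25a25, an ATP carrier of the mitochondrial membrane (log2FC 1.48, adjusted p = 0.0049, up to 0.0144 without M1, M2, M4, M5, M7, M9 or M11, groups overlapping). Pdk4, the kinase that closes pyruvate dehydrogenase, was at 703 to 1871 CPM (median 1172) in vehicle-treated mice and 1666 to 2525 CPM (median 2283) in corticosterone-treated mice and did not pass (log2FC 0.81, SE 0.27, adjusted p = 0.0196), although it did by DESeq2 and limma-voom.

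Of fatty acid uptake and oxidation genes 3 of 32 tested genes rose and 2 fell, with a median log2FC of 0.03. The lipid droplet coat genes rose, Plin5 (log2FC 1.57, adjusted p = 0.00265, groups overlapping) and Plin3 (log2FC 1.36, adjusted p = 9.87e-05), as did the triglyceride lipase gene Pnpla2 (log2FC 1.15), while the oxidation enzymes Acads (log2FC -0.73, groups overlapping) and Hadh (log2FC -0.61, groups overlapping) fell. In fatty acid and triglyceride synthesis 2 of 22 tested genes rose and 1 fell, with a median log2FC of 0.54. The rises numbered 1 without M8, M9 and M12 together. The lipase-like gene Pnpla3 rose from a median of 5.04 CPM (3.48 to 12.96) to 29.1 CPM (22.6 to 46.1), a log2FC of 2.31 (SE 0.47, adjusted p = 0.000582). Acacb, which makes malonyl-CoA at the mitochondrion, rose (log2FC 0.70, adjusted p = 1.29e-05), and the acyltransferase gene Gpam fell (log2FC -0.91, adjusted p = 6.25e-05, groups overlapping). In cholesterol synthesis, uptake and control 1 of 26 tested genes rose and none fell by edgeR, with a median log2FC of 0.07. DESeq2 gave 0 falls and limma-voom 0, and 1 gene was lower at an unadjusted p under 0.05. There were 2 rises without M2 or M5. The median log2FC of this list was -0.05 without M8. The gene that rose was Nr1h3, the oxysterol receptor LXR alpha, which moved from a median of 17.1 CPM (14.03 to 20.4) to 44.5 CPM (41.6 to 56.8), a log2FC of 1.45 (SE 0.13, adjusted p = 6.30e-08). Pellets of both groups held cholesterol, in unequal amounts. The motif CACCCCAC, a part of sterol response elements, was in 3.89% of all promoters and in 1 of 19 promoters of this list.

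Amino acid genes divided by function. Breakdown of branched-chain amino acids leaned downwards, and 1 of 20 tested genes rose and 6 fell, with a median log2FC of -0.26. Without M8, M9 and M12 together the test gave 3 falls. The carboxylase subunit genes Pccb (log2FC -0.53, adjusted p = 0.000993) and Mccc1 (log2FC -0.52, adjusted p = 0.00167) fell, and Acadsb, a dehydrogenase of isoleucine breakdown, rose (log2FC 0.84, adjusted p = 1.01e-05). Of transport, transamination and glutamine synthesis 6 of 25 tested genes rose and 1 fell, with a median log2FC of 0.22. This median was 0.10 without M8 and 0.04 without M8, M9 and M12, with the same numbers of rises and falls. Glul, glutamine synthetase, through which muscle exports nitrogen, was at 176 to 352 CPM (median 247) in vehicle-treated mice and 851 to 1187 CPM (median 995) in corticosterone-treated mice (log2FC 2.01, SE 0.24, adjusted p = 2.02e-06). Slc43a1, a transporter of large neutral amino acids, rose from a median of 29.4 CPM (21.97 to 35.7) to 101 CPM (77.8 to 148), a log2FC of 1.87 (SE 0.24, adjusted p = 3.79e-06). The taurine transporter gene Slc6a6 fell (log2FC -0.59, adjusted p = 0.000433).

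Polyamine and creatine genes leaned downwards, and 6 of 15 tested genes fell and none rose by edgeR, with a median log2FC of -0.59. The other tools, DESeq2 and limma-voom, also gave 0 rises, as did an unadjusted p under 0.05. The falls numbered 3 without M8, M9 and M12 together. Amd1, which makes the aminopropyl donor for spermidine and spermine, was at 857 to 1630.1 CPM (median 1213) in vehicle-treated mice and 179.5 to 554 CPM (median 259) in corticosterone-treated mice (log2FC -2.08, SE 0.25, adjusted p = 1.56e-06). Gamt, the last enzyme of creatine synthesis, fell from a median of 16.9 CPM (13.05 to 29.7) to 4.01 CPM (1.52 to 6.65), a log2FC of -2.14 (SE 0.33, adjusted p = 4.03e-05). Of NAD salvage genes and sirtuins 3 of 16 tested genes rose and 6 fell, with a median log2FC of -0.28. There was 1 rise without M3 or M8 and also without M8, M9 and M12 together. Nmrk2, the muscle kinase of nicotinamide riboside, was at 113 to 293 CPM (median 236) in vehicle-treated mice and 1.81 to 40.1 CPM (median 11.7) in corticosterone-treated mice (log2FC -3.77, SE 0.62, adjusted p = 6.77e-05), with the lowest value in M8. Nmnat3, which makes NAD in mitochondria, fell (log2FC -0.89, adjusted p = 7.32e-06). Sirt2, a deacetylase of the cytosol, rose (log2FC 0.56, adjusted p = 1.62e-05). Nampt, the rate-limiting enzyme of the salvage pathway, rose slightly (log2FC 0.29, adjusted p = 0.00906, up to 0.0268 without M1, M2, M3, M4, M6, M7, M8, M9, M10 or M11, groups overlapping).

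Clock genes changed on both sides, where 6 of 22 tested genes rose and 5 fell, with a median log2FC of -0.01. Dbp, an output transcription factor with a strong daily rhythm, was at 55.9 to 131 CPM (median 93.8) in vehicle-treated mice and 9.15 to 25.4 CPM (median 11.7) in corticosterone-treated mice (log2FC -2.73, SE 0.31, adjusted p = 7.88e-07). Bhlhe41, a repressor of the clock, fell from a median of 82.7 CPM (76.6 to 93.1) to 32.03 CPM (22.8 to 51.7), a log2FC of -1.28 (SE 0.15, adjusted p = 1.40e-06). Nr1d1, which encodes REV-ERB alpha, fell (log2FC -0.67, adjusted p = 0.00228, groups overlapping). Per1, a period gene with receptor elements, was at 9.64 to 42.8 CPM (median 29.8) in vehicle-treated mice and 67.2 to 79.9 CPM (median 74.4) in corticosterone-treated mice (log2FC 1.40, SE 0.30, adjusted p = 0.000993). Treated mice were close to each other for Per1 and vehicle-treated mice were spread. Arntl, the core activator, was near 0 (log2FC 0.01, adjusted p = 0.973), with ranges that overlapped. Sampling times were not given in the sources used here, and a shared or different phase of the mice was not tested. The E-box CACGTG was in 11.8% of all promoters and in those of 5 of 17 clock genes, namely Per1, Cry1, Tef, Bhlhe41 and Ciart.

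Slow fibre transcripts varied widely between mice of the same group. Among slow and type 2A fibre genes, of 14 tested genes none rose or fell by edgeR, with a median log2FC of -1.12. By DESeq2 there were 0 and by limma-voom 0 rises, and 1 gene was higher at an unadjusted p under 0.05. No fall was found by DESeq2, by limma-voom or at an unadjusted p under 0.05 (0 falls each). The median log2FC of this list was 0.91 by limma-voom, so its sign differed between tools. With a score of these same genes as a covariate the median was 0.005, a value that the adjustment itself draws towards 0. The summed level of these genes was 336 to 14642 CPM in vehicle-treated and 230.0 to 7968 CPM in corticosterone-treated mice. Myh7, the slow myosin heavy chain, was at 303.6 to 1064 CPM in M3, M5, M6 and M10 and at most 6.10 CPM in the other male mice. Its share of the 4 adult myosin heavy chain transcripts reached 1.79% in vehicle-treated and 0.689% in corticosterone-treated mice. Myh4, the fast 2B myosin, took 76.1% to 99.2% and 75.0% to 98.5% of these transcripts and did not pass (log2FC 0.24, adjusted p = 0.478). Adding the slow fibre score as a covariate gave 3647 calls, which held 99.2% of the main calls.

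Other contractile genes changed within the fast fibre program. Of the fast fibre genes 3 of 14 tested genes rose and 3 fell, with a median log2FC of 0.04. Actn3, the alpha-actinin of fast fibre Z-discs, was at 6621 to 10386 CPM (median 8276) in vehicle-treated mice and 18800.1 to 33933 CPM (median 25540.3) in corticosterone-treated mice (log2FC 1.61, SE 0.22, adjusted p = 7.52e-06). Myl1, the fast essential light chain, fell from a median of 15661 CPM (12606 to 17753) to 4162 CPM (2161 to 6175), a log2FC of -1.94 (SE 0.27, adjusted p = 9.24e-06). Among embryonic and neonatal contractile genes 1 of 8 tested genes rose and 1 fell, with a median log2FC of 0.40. Actc1, the cardiac actin that muscle carries before birth, fell from a median of 584 CPM (249.5 to 988) to 35.1 CPM (18.99 to 80.4), a log2FC of -3.75 (SE 0.68, adjusted p = 0.000185). Mybph, a myosin-binding protein, rose from a median of 155 CPM (41.1 to 435) to 788 CPM (551 to 1404), a log2FC of 2.16 (SE 0.43, adjusted p = 0.000491).

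Of calcium release and reuptake genes 4 of 25 tested genes rose and 5 fell, with a median log2FC of -0.01. Without M7 and also without M8, M9 and M12 together the test gave 3 falls. The release channel gene Ryr1 (log2FC 0.77, adjusted p = 0.000575) and the calcium pump gene Atp2a1 (log2FC 0.81, adjusted p = 0.00038) rose. The store protein gene Casq1 (log2FC -1.02, adjusted p = 0.000302) and the receptor channel gene Itpr1 (log2FC -0.95, adjusted p = 0.00071, groups overlapping) fell. Of the sodium pump and membrane channels 2 of 19 tested genes rose and 2 fell, with a median log2FC of -0.14. The falls numbered 1 without M3, M4, M5, M8 or M12 and also without M8, M9 and M12 together. Kcnj12, an inward rectifier, rose (log2FC 1.08, adjusted p = 9.54e-05), and Scn4b, a sodium channel subunit, fell (log2FC -0.81, adjusted p = 0.000406). At the neuromuscular junction 4 of 21 tested genes rose and 1 fell, with a median log2FC of -0.001. There were 0 falls without M8, M9 and M12 together, and 2 without M2, M6 or M11. Musk, the kinase that clusters acetylcholine receptors, rose from a median of 16.9 CPM (11.8 to 21.7) to 39.8 CPM (24.8 to 49.4), a log2FC of 1.24 (SE 0.24, adjusted p = 0.000334), and the receptor subunit gene Chrna1 did not pass (log2FC 0.33, adjusted p = 0.441). Myog, a myogenic factor that also marks denervation, rose from a median of 2.87 CPM (2.30 to 5.13) to 12.4 CPM (6.47 to 15.8), a log2FC of 1.76 (SE 0.28, adjusted p = 5.05e-05). Of myogenic factors and satellite cell genes 2 of 18 tested genes rose and 3 fell, with a median log2FC of -0.14. Without M8, M9 and M12 together the test gave 1 fall. Calcr, a receptor of quiescent satellite cells, fell from a median of 1.71 CPM (0.802 to 1.96) to 0.365 CPM (0.0881 to 0.484), a log2FC of -2.26 (SE 0.40, adjusted p = 0.000142). The transcription factor gene Mef2c fell (log2FC -0.78, adjusted p = 0.00198), and the cadherin gene Cdh15 rose (log2FC 0.95, adjusted p = 3.41e-05). Pax7, the satellite cell factor, lay below the controls without overlap but did not pass (log2FC -0.92, adjusted p = 0.0168). Of stretch-responsive and Z-disc genes 3 of 22 tested genes rose and 2 fell, with a median log2FC of 0.50, the rises including Myot (log2FC 0.79, adjusted p = 0.000184) and Xirp2 (log2FC 0.73, adjusted p = 0.000472).

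Collagen and other matrix genes were among those that fell. Of fibrillar and fibril-associated collagens 8 of 13 tested genes fell and none rose by edgeR, with a median log2FC of -1.77. The other tools, DESeq2 and limma-voom, also gave 0 rises, as did an unadjusted p under 0.05. Col3a1 (ENSMUSG00000026043, chromosome 1, 45311538 to 45349706, plus strand) was at 255 to 384 CPM (median 307) in vehicle-treated mice and 10.3 to 31.5 CPM (median 21.8) in corticosterone-treated mice (log2FC -3.96, SE 0.38, adjusted p = 1.16e-07). Col1a1, the main chain of type I collagen, was at 108 to 179 CPM (median 137) in vehicle-treated mice and 10.7 to 21.3 CPM (median 14.1) in corticosterone-treated mice (log2FC -3.26, SE 0.36, adjusted p = 7.26e-07). The summed level of the list was 681 to 933 CPM in vehicle-treated and 89.9 to 166 CPM in corticosterone-treated mice, and the groups did not overlap. Without M8, M9 and M12 the number of these collagens that fell was 8 as well. Of collagen folding, modification and crosslinking genes 12 of 24 tested genes fell and none rose by edgeR, with a median log2FC of -0.66. By DESeq2 there were 2 and by limma-voom 3 rises, and 3 genes were higher at an unadjusted p under 0.05. The rises numbered 1 without M12 and also without M8, M9 and M12 together. Loxl2, which crosslinks collagen, fell from a median of 19.2 CPM (17.5 to 21.4) to 3.08 CPM (1.87 to 4.30), a log2FC of -2.66 (SE 0.25, adjusted p = 8.66e-08). Falls were also found for the collagen chaperone gene Serpinh1 (log2FC -1.53, adjusted p = 3.24e-05) and the protease gene Adamts14, which trims procollagen (log2FC -1.88, adjusted p = 0.000256). Lox, the first lysyl oxidase, lay above the controls without overlap but did not pass (log2FC 0.96, adjusted p = 0.0149).

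Of the basement membrane and collagen VI genes 1 of 20 tested genes rose and 6 fell, with a median log2FC of -0.64, and 10 fell by DESeq2. There were 2 rises without M11. Col6a3, of the collagen VI sheath around fibres, fell from a median of 50.3 CPM (45.99 to 66.98) to 9.50 CPM (6.51 to 11.9), a log2FC of -2.53 (SE 0.22, adjusted p = 5.74e-08). Col6a1 (log2FC -2.06, adjusted p = 9.41e-08) and Col15a1 (log2FC -2.86, adjusted p = 2.59e-07) fell as well. Col4a1, a chain of the basement membrane network, was below the controls without overlap and did not pass (log2FC -0.84, adjusted p = 0.0159). Lamb2, a laminin of the muscle membrane, rose (log2FC 0.44, adjusted p = 0.000778, groups overlapping). Small proteoglycans and matricellular genes leaned downwards, where 1 of 30 tested genes rose and 9 fell, with a median log2FC of -0.67. Without M8, M9 and M12 together the test gave 5 falls. Fbn1, the microfibril protein fibrillin, fell from a median of 71.7 CPM (48.2 to 89.7) to 14.003 CPM (10.6 to 18.7), a log2FC of -2.25 (SE 0.28, adjusted p = 2.99e-06). Postn, the adhesion protein periostin, fell from a median of 12.4 CPM (7.27 to 18.3) to 2.81 CPM (0.748 to 5.19), a log2FC of -2.14 (SE 0.52, adjusted p = 0.00253). The rise was that of Ccn1, a matricellular gene that serum and stretch induce, from a median of 15.9 CPM (9.33 to 33.3) to 72.5 CPM (54.2 to 114), a log2FC of 2.04 (SE 0.28, adjusted p = 9.30e-06). Among matrix proteases and inhibitors 6 of 23 tested genes fell and none rose by edgeR, with a median log2FC of -0.54. DESeq2 gave 2 rises and limma-voom 3, and 3 genes were higher at an unadjusted p under 0.05. The rises numbered 1 without M1 or M9. Mmp2, gelatinase A, was at 47.6 to 72.9 CPM (median 64.1) in vehicle-treated mice and 11.03 to 16.5 CPM (median 13.6) in corticosterone-treated mice (log2FC -2.21, SE 0.21, adjusted p = 1.10e-07).

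**Figure D4:**
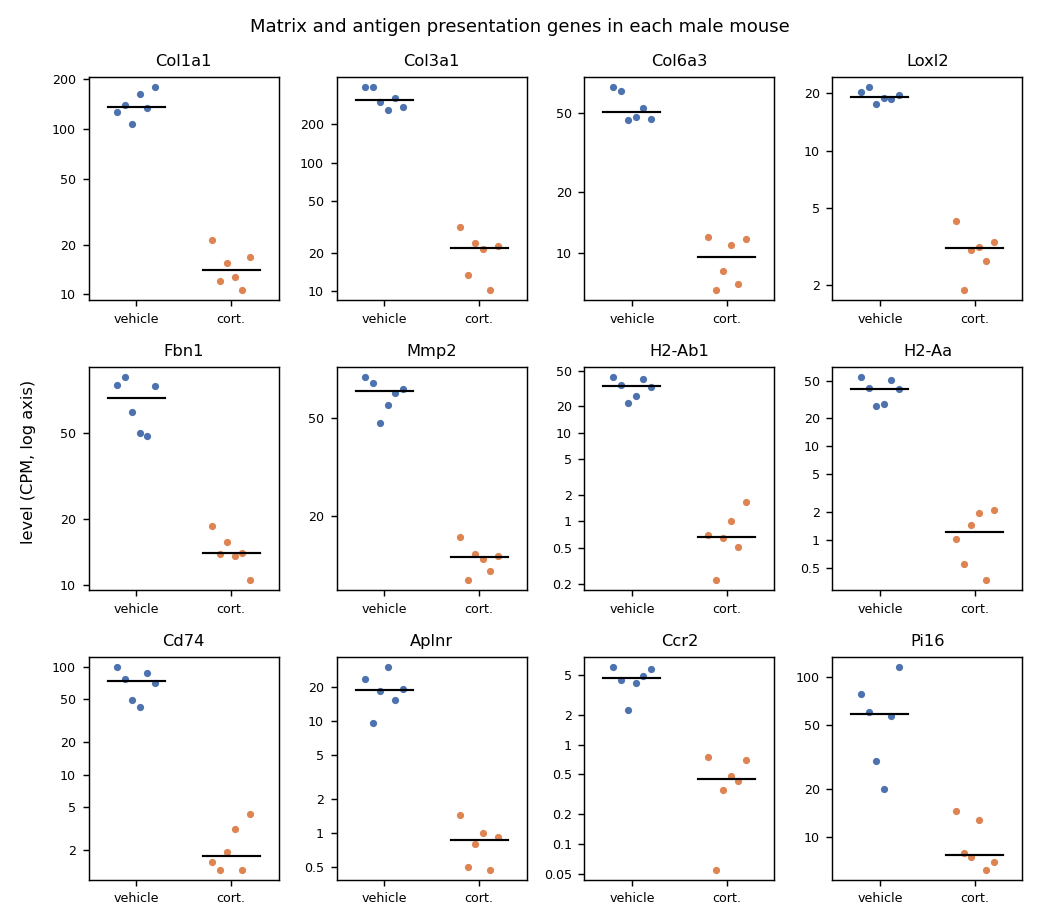
Level in CPM (log axis) of 12 matrix, antigen presentation and stromal genes in each of 6 vehicle-treated (blue) and 6 corticosterone-treated (orange) male mice, with the median as a line. In every panel all treated mice lie below all vehicle-treated mice, and the 3 antigen presentation genes fall furthest.

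MHC class II genes, by which dendritic cells, macrophages and B cells present peptides to helper T cells, fell without exception among those tested. Of 10 listed genes 7 passed the filter on low counts, and 7 of 7 tested genes fell and none rose by edgeR, with a median log2FC of -5.00. The other tools, DESeq2 and limma-voom, also gave 0 rises, as did an unadjusted p under 0.05. H2-Ab1 (ENSMUSG00000073421, chromosome 17, 34257689 to 34269419, plus strand) was at 21.3 to 42.1 CPM (median 33.4) in vehicle-treated mice and 0.221 to 1.66 CPM (median 0.674) in corticosterone-treated mice (log2FC -5.33, SE 0.46, adjusted p = 4.54e-08). H2-Aa, the alpha chain partner, fell from a median of 40.8 CPM (26.5 to 54.3) to 1.23 CPM (0.379 to 2.08), a log2FC of -5.00 (SE 0.49, adjusted p = 1.64e-07). H2-Eb1, the beta chain of the other class II molecule, fell from a median of 24.7 CPM (15.98 to 31.2) to 0.495 CPM (0.142 to 1.25), a log2FC of -5.21 (SE 0.48, adjusted p = 8.27e-08). Cd74, the invariant chain that fills the peptide groove during assembly, fell from a median of 73.9 CPM (42.4 to 99.3) to 1.75 CPM (1.32 to 4.34), a log2FC of -4.95 (SE 0.47, adjusted p = 1.19e-07). Ciita, the master activator of these genes, was at 1.02 to 2.05 CPM (median 1.43) in vehicle-treated mice and had at most 2 counts in a corticosterone-treated mouse. The filter let such genes in through the vehicle group.

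The Y box CTGATTGG, the element bound by NF-Y in class II promoters, was in 6.44% of all promoters, 6.04% of those of genes that rose and 5.61% of those of genes that fell. Of 4 class II genes with a RefSeq promoter it was in those of H2-Aa and H2-Eb1, which are shown from 220 bases before the start with the box, which overlapped none of the other motifs, in capitals, because these genes fell together.
H2-Aa (chr17:34287824-34288043, minus strand, capitals starting 51 bases before the start): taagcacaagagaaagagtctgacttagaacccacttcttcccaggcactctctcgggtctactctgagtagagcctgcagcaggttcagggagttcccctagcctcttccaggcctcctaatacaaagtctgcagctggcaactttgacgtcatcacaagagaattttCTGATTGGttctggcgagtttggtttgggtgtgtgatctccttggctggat
H2-Eb1 (chr17:34305647-34305866, plus strand, capitals starting 62 bases before the start): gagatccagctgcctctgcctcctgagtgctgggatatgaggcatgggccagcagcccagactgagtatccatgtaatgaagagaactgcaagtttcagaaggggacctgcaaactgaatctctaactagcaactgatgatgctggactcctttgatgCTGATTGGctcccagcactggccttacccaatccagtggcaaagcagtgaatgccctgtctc

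Class I and interferon genes fell by less. Of MHC class I and immunoproteasome genes 10 of 20 tested genes fell and none rose by edgeR, with a median log2FC of -0.53. By DESeq2 there were 0 and by limma-voom 0 rises, and 1 gene was higher at an unadjusted p under 0.05. There were 6 falls without M11. H2-K1, a classical class I gene, did not pass (log2FC -0.32, adjusted p = 0.447), with 79.02 to 107 CPM (median 104) in vehicle-treated mice and 56.7 to 115 CPM (median 71.3) in corticosterone-treated mice. H2-Q6 fell (log2FC -1.88, adjusted p = 0.000508, groups overlapping), but reads of such close relatives may be split between them. The peptide transporter gene Tap1 (log2FC -1.43, adjusted p = 0.00185, groups overlapping) and the immunoproteasome subunit gene Psmb8 (log2FC -0.93, adjusted p = 0.00831, up to 0.0297 without M2, M4, M6, M7, M10, M11 or M12) fell. Of interferon response genes 10 of 42 tested genes fell and none rose by edgeR, with a median log2FC of -0.38, with 39 of 42 values below 0. No rise was found by DESeq2, by limma-voom or at an unadjusted p under 0.05 (0 rises each). The guanylate-binding protein gene Gbp4 fell from a median of 9.71 CPM (5.07 to 44.04) to 1.99 CPM (1.27 to 2.91), a log2FC of -3.10 (SE 0.48, adjusted p = 3.41e-05). The chemokine gene Cxcl9 fell from a median of 1.71 CPM (1.36 to 4.41) to 0.548 CPM (0.161 to 0.878), a log2FC of -2.07 (SE 0.38, adjusted p = 0.000225). Of complement components and regulators 4 of 19 tested genes fell and none rose by edgeR, with a median log2FC of -0.40. At an unadjusted p under 0.05, 1 gene was higher, and DESeq2 gave 1 rise and limma-voom 1. Without M5 the test gave 1 rise. The falls numbered 1 without M3, and 2 without M8 or M10. The falls were those of the protease genes C1ra (log2FC -0.92, adjusted p = 0.00318, groups overlapping) and C1s1 (log2FC -0.69) and the inhibitor genes Cd55 (log2FC -0.88, adjusted p = 0.0057, up to 0.0165 without M1, M3, M5, M8, M9, M10 or M12, groups overlapping) and Cd59a (log2FC -0.74, groups overlapping).

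Among cytokines, chemokines and NF-kB feedback genes 2 of 29 tested genes rose and 6 fell, with a median log2FC of -0.49, and the rises were large. Cxcl13, a chemokine that attracts B cells, was at 0.0891 to 0.469 CPM (median 0.150) in vehicle-treated mice and 7.76 to 17.6 CPM (median 11.9) in corticosterone-treated mice (log2FC 5.65, SE 0.61, adjusted p = 4.81e-07). Il6ra, the receptor subunit for interleukin 6, was at 3.10 to 9.30 CPM (median 6.16) in vehicle-treated mice and 37.3 to 74.5 CPM (median 64.8) in corticosterone-treated mice (log2FC 3.31, SE 0.31, adjusted p = 7.83e-08). At its vehicle level Cxcl13 could enter the test only through another group, where it was higher. The other members that passed fell.

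Heat shock genes (12.5%) and unfolded protein and ATF4 response genes (18.8%) passed less often than all autosomal genes (26.4%). Of heat shock proteins and co-chaperones 2 of 32 tested genes rose and 2 fell, with a median log2FC of 0.10. There was 1 rise without M3 and also without M8, M9 and M12 together. Without M1, M4, M7, M8, M9 or M12 and also without M8, M9 and M12 together the test gave 1 fall. The heat shock factor gene Hsf1 (log2FC 0.67, adjusted p = 2.25e-05) and the receptor chaperone gene Hsp90ab1 (log2FC 0.34, adjusted p = 0.00405, up to 0.0133 without M3 or M8) rose, and the co-chaperone genes Bag2 (log2FC -1.21, adjusted p = 7.93e-06) and Hspb8 (log2FC -0.64, groups overlapping) fell. Of unfolded protein and ATF4 response genes 3 of 32 tested genes rose and 3 fell, with a median log2FC of 0.11 (-0.005 without M8). Calr, a folding protein of the endoplasmic reticulum, rose (log2FC 0.44, adjusted p = 0.00159). Ddit3, which encodes the stress factor CHOP, fell (log2FC -0.997, adjusted p = 0.00786, up to 0.022 without M1, M2, M3, M4, M5, M6, M8, M10, M11 or M12, groups overlapping). Psph, of serine synthesis, fell as well (log2FC -0.90, adjusted p = 1.65e-05). Of antioxidant, glutathione and metallothionein genes 8 of 39 tested genes rose and 4 fell (30.8% passed), with a median log2FC of 0.02. The secreted peroxidase gene Gpx3 rose from a median of 304 CPM (227 to 357) to 800.2 CPM (492 to 1065), a log2FC of 1.51 (SE 0.20, adjusted p = 7.78e-06). The quinone reductase gene Nqo1 (log2FC -0.79, adjusted p = 0.000957) and the glutathione transferase gene Gsta4 (log2FC -1.50, adjusted p = 5.11e-08) fell.

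Of cell cycle inhibitors and Gadd45 genes 7 of 20 tested genes rose and 3 fell, with a median log2FC of 0.20, the rises including the growth arrest genes Btg2 (log2FC 1.56, adjusted p = 3.81e-06) and Gadd45a (log2FC 1.06, adjusted p = 0.000627). Ccnd1, cyclin D1, fell from a median of 10.5 CPM (7.55 to 14.3) to 1.61 CPM (0.331 to 2.40), a log2FC of -2.78 (SE 0.37, adjusted p = 5.35e-06). Trp53inp2, a stress-induced nuclear protein of autophagy, fell slightly (log2FC -0.58, adjusted p = 0.000756). Of dividing-cell genes 15 of 25 passed the filter, and 4 of 15 tested genes rose and 3 fell, with a median log2FC of 0.33. The replication helicase gene Mcm7 rose (log2FC 0.69, adjusted p = 5.87e-05, groups overlapping). Values above 0 were found for 9 of the 15. Mki67, a division marker, fell at a very low level. Its median went from 0.828 CPM (0.536 to 1.29) to 0.0512 CPM (0 to 0.370), a log2FC of -2.91 (SE 0.72, adjusted p = 0.00288). Top2a, the topoisomerase of dividing cells, also fell (log2FC -2.40, adjusted p = 0.00707, up to 0.0429 without M1, M4, M6, M7, M8, M10 or M12, groups overlapping). Of immediate early genes 7 of 17 tested genes rose and none fell by edgeR, with a median log2FC of 0.48. Likewise 0 falls were found by DESeq2, by limma-voom and at an unadjusted p under 0.05. The rises numbered 4 without M8, M9 and M12 together. Jun, a subunit of the transcription factor AP-1, moved from a median of 76.98 CPM (43.98 to 90.95) to 165 CPM (134 to 183), a log2FC of 1.13 (SE 0.13, adjusted p = 1.58e-06). Of imprinted genes 3 of 20 tested genes rose and 4 fell, with a median log2FC of -0.18. The noncoding RNAs H19 (log2FC 1.75, adjusted p = 5.42e-05) and Peg13 (log2FC 1.79, adjusted p = 7.15e-09) rose, and Meg3 (log2FC -0.87, adjusted p = 0.00123, groups overlapping) and Mest (log2FC -1.98, adjusted p = 0.00178, groups overlapping) fell.

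Markers of the other cells in the muscle did not all move the same way. Of fibroblast markers 9 of 14 tested genes fell and none rose by edgeR, with a median log2FC of -1.23. DESeq2, limma-voom and an unadjusted p under 0.05 gave 0 rises as well. Pi16, a marker of adventitial fibroblasts, fell from a median of 58.4 CPM (19.8 to 115) to 7.76 CPM (6.25 to 14.5), a log2FC of -2.68 (SE 0.40, adjusted p = 2.22e-05). The summed level of the markers was 1708 to 2573 CPM in vehicle-treated and 1111 to 1693 CPM in corticosterone-treated mice. Some of these markers, such as Col1a1, are also members of the matrix lists. Of endothelial markers and angiogenic factors 1 of 20 tested genes rose and 6 fell, with a median log2FC of -0.49. Aplnr, the apelin receptor of vessels, fell from a median of 18.9 CPM (9.55 to 30.1) to 0.861 CPM (0.473 to 1.45), a log2FC of -4.48 (SE 0.44, adjusted p = 1.66e-07). Vegfa, the vascular growth factor that fibres secrete, fell from a median of 193 CPM (145 to 246) to 95.2 CPM (72.7 to 132), a log2FC of -0.97 (SE 0.19, adjusted p = 0.000327), while its receptor gene Flt1 rose (log2FC 0.71, adjusted p = 0.0012, groups overlapping). Endothelial sums were 738 to 1054 CPM in vehicle-treated and 531 to 784 CPM in corticosterone-treated mice. Of macrophage markers 4 of 19 tested genes fell and none rose by edgeR, with a median log2FC of -0.51, with sums of 113 to 320.0 CPM in vehicle-treated and 136 to 211 CPM in corticosterone-treated mice. At an unadjusted p under 0.05, 1 gene was higher, and DESeq2 gave 1 rise and limma-voom 0. There were 2 falls without M8, M9 and M12 together. Ccr2, a receptor of recruited monocytes, fell from a median of 4.70 CPM (2.25 to 6.02) to 0.455 CPM (0.0551 to 0.753), a log2FC of -3.30 (SE 0.44, adjusted p = 7.15e-06). The other falls were those of the leukocyte gene Ptprc (log2FC -1.81, adjusted p = 0.000339), Mpeg1 (log2FC -1.53, groups overlapping) and Laptm5 (log2FC -1.17). Csf1r, a defining macrophage gene, did not pass (log2FC -0.69, adjusted p = 0.0508). Of dendritic cell markers 3 of 10 were tested and 1 of 3 tested genes fell and none rose by edgeR, with a median log2FC of -0.46. Likewise 0 rises were found by DESeq2, by limma-voom and at an unadjusted p under 0.05. Cd209a, a lectin of dendritic cells, was at 1.15 to 2.61 CPM (median 1.96) in vehicle-treated mice and had at most 3 counts in a treated mouse. Of lymphocyte markers 2 of 18 were tested and 2 of 2 tested genes fell and none rose by edgeR, with a median log2FC of -2.30. No rise was found by DESeq2, by limma-voom or at an unadjusted p under 0.05 (0 rises each). Without M8, M9 and M12 together the test gave 1 fall. Ighm, the heavy chain of immunoglobulin M, fell from a median of 109.9 CPM (59.8 to 277) to 21.8 CPM (7.43 to 50.8), a log2FC of -2.55 (SE 0.57, adjusted p = 0.00133), and so did the T cell gene Cd247 (log2FC -2.06, adjusted p = 0.000111). The part of cell numbers in the falls of MHC class II and matrix genes was not tested.

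**Figure D5:**
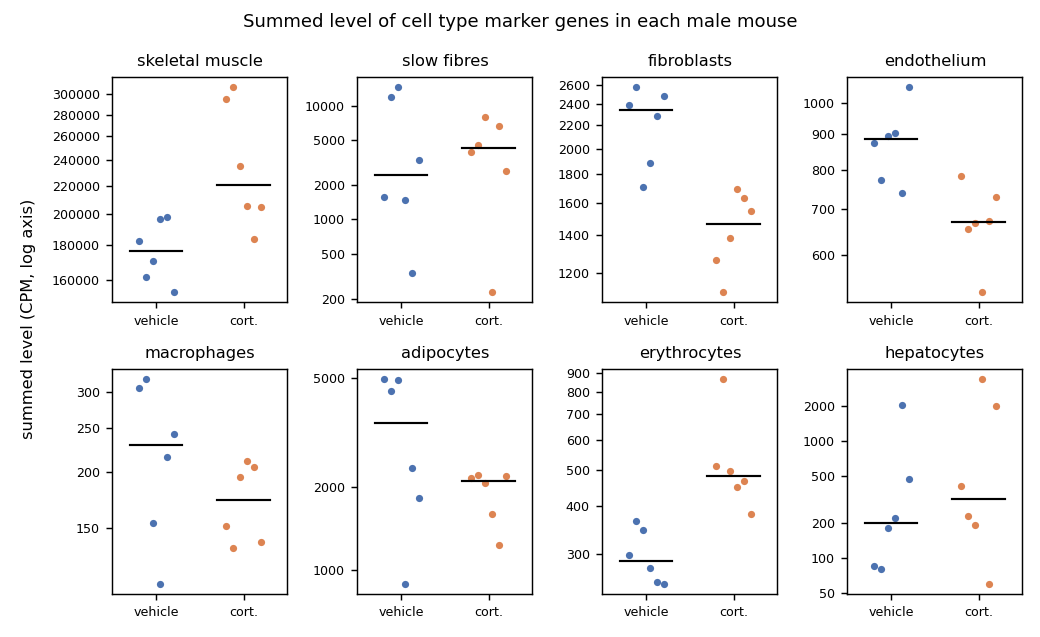
Summed level in CPM (log axis) of marker genes of 8 cell types in each of 6 vehicle-treated (blue) and 6 corticosterone-treated (orange) male mice, with the median as a line. Fibroblast sums lie below and erythrocyte sums above those of vehicle-treated mice, and hepatocyte markers are high in M8, M9 and M12.

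Erythrocyte markers rose, and 5 of 6 tested genes rose and none fell by edgeR, with a median log2FC of 1.30. The other tools, DESeq2 and limma-voom, also gave 0 falls, as did an unadjusted p under 0.05. The rises numbered 2 without M4, and 3 without M1, M9 or M11 and also without M8, M9 and M12 together. Hba-a1, an alpha globin with a near-identical copy, rose from a median of 53.8 CPM (44.6 to 83.9) to 121 CPM (87.6 to 293), a log2FC of 1.30 (SE 0.35, adjusted p = 0.00545, up to 0.0242 without M1, M4, M7, M9 or M11). Hbb-bs, a beta globin, rose from a median of 50.3 CPM (34.8 to 81.99) to 119 CPM (72.2 to 262), a log2FC of 1.30 (SE 0.33, adjusted p = 0.00334, up to 0.0141 without M4, groups overlapping). Erythrocyte sums were 251 to 367 CPM in vehicle-treated and 381 to 865 CPM in corticosterone-treated mice. Of adipocyte markers 1 of 15 tested genes rose and none fell by edgeR, with a median log2FC of 0.01 (-0.19 without M8 and -0.67 without M8, M9 and M12), the rise being that of the lipid droplet gene Plin4 (log2FC 1.33, adjusted p = 1.37e-06), which muscle also expresses. By DESeq2 there was 1 and by limma-voom 0 falls, and 2 genes were lower at an unadjusted p under 0.05. Adipocyte sums were 889 to 4948 CPM in vehicle-treated and 1226 to 2209.8 CPM in corticosterone-treated mice. For hepatocyte markers, of 18 tested genes none rose or fell by edgeR, with a median log2FC of 1.13. DESeq2, limma-voom and an unadjusted p under 0.05 gave 0 rises and 0 falls as well. The median log2FC of hepatocyte markers was 0.21 without M8 and 0.25 without M8, M9 and M12. The albumin gene Alb was at 9.74 to 1103 CPM (median 74.7) in vehicle-treated mice and 27.2 to 1831 CPM (median 145) in corticosterone-treated mice. For Schwann cells and myelin, of 13 tested genes none rose or fell by edgeR, with a median log2FC of -0.35. Likewise 0 rises were found by DESeq2, by limma-voom and at an unadjusted p under 0.05. DESeq2 gave 0 falls and limma-voom 0, and 2 genes were lower at an unadjusted p under 0.05. Of neutrophil markers 3 of 12 were tested and 1 of 3 tested genes rose and none fell by edgeR, with a median log2FC of -0.60. At an unadjusted p under 0.05, 1 gene was lower, and DESeq2 gave 1 fall and limma-voom 0. There were 0 rises without M1, M8, M9 or M11 and also without M8, M9 and M12 together. Without M7 the test gave 1 fall. The rise was that of S100a8, a calcium-binding protein, from a median of 0.257 CPM (0.140 to 0.382) to 1.02 CPM (0.161 to 2.99), a log2FC of 2.22 (SE 0.60, adjusted p = 0.00531, up to 0.0269 without M1, M8, M9 or M11, groups overlapping). For keratinocyte markers, of 2 tested genes none rose or fell by edgeR, with a median log2FC of 0.41. By DESeq2 there was 1 and by limma-voom 1 rise, and 1 gene was higher at an unadjusted p under 0.05. DESeq2, limma-voom and an unadjusted p under 0.05 gave 0 falls as well. The rises numbered 1 without M1. Of muscle fibre markers 3 of 10 tested genes rose and none fell by edgeR, with a median log2FC of 0.44, namely Actn3, Atp2a1 and Ryr1 as given above. The other tools, DESeq2 and limma-voom, also gave 0 falls, as did an unadjusted p under 0.05.

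Some of the largest changes lay outside the lists. Doc2b, a calcium sensor of vesicle release, was at 0.0477 to 0.560 CPM (median 0.268) in vehicle-treated mice and 7.48 to 13.7 CPM (median 8.96) in corticosterone-treated mice (log2FC 5.02, SE 0.36, adjusted p = 7.15e-09). Kcnk1, a background potassium channel, was at 0.140 to 0.668 CPM (median 0.249) in vehicle-treated mice and 2.25 to 16.8 CPM (median 11.1) in corticosterone-treated mice (log2FC 5.04, SE 0.58, adjusted p = 1.12e-06). Pnmt, the enzyme that makes adrenaline, was at 0.153 to 0.844 CPM (median 0.626) in vehicle-treated mice and 8.71 to 16.7 CPM (median 11.55) in corticosterone-treated mice (log2FC 4.39, SE 0.28, adjusted p = 9.48e-10). The growth factor gene Bmp8a rose from a median of 0.265 CPM (0.153 to 0.490) to 5.20 CPM (2.37 to 10.5), a log2FC of 4.28 (SE 0.64, adjusted p = 2.25e-05). Each lay below 1 CPM in every vehicle-treated mouse, so the filter on low counts let these genes in through another group, where they were higher. Among falls, Nrep, a neuronal regeneration related protein, was at 179 to 347 CPM (median 241) in vehicle-treated mice and 8.50 to 21.7 CPM (median 14.9) in corticosterone-treated mice (log2FC -4.12, SE 0.31, adjusted p = 1.08e-08). Retnla, a secreted protein of alternatively activated macrophages, was at 10.8 to 93.6 CPM (median 60.5) in vehicle-treated mice and 1.33 to 4.05 CPM (median 2.97) in corticosterone-treated mice (log2FC -4.36, SE 0.52, adjusted p = 1.66e-06). The cilium gene Rsph1 (log2FC -4.40, adjusted p = 0.000135) and the LIM domain gene Crip3 (log2FC -4.41, adjusted p = 1.93e-05) also fell, with vehicle-treated mice spread over 0.985 to 21.2 CPM (median 2.77) and 0.334 to 6.39 CPM (median 4.55). Among genes that make no protein, the RNAs BB123696 (log2FC 4.03, adjusted p = 2.01e-06) and Gm12514 (log2FC 3.37, adjusted p = 1.19e-07) rose. RNAs that fell were Gm12199 (log2FC -4.26, adjusted p = 3.22e-06), Irx3os (log2FC -3.99, adjusted p = 3.23e-05) and AC122818.4 (log2FC -2.74, adjusted p = 2.04e-07).

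The response of male mice was set beside that of female mice only by the test of the difference, the interaction of sex and treatment. It passed for 90 autosomal genes (0.714%). Leaving out 1 mouse of either sex gave from 1 call, without the vehicle-treated M3, to 862 calls, without the corticosterone-treated female F8, so single genes of this test are uncertain. Among the genes named here, Sesn1 had a log2FC of 1.64 in male mice and of 0.03 in female mice (adjusted p of the difference = 0.00385). For Foxo3 these values were 1.54 and 0.52 (adjusted p of the difference = 0.00607), and for Col3a1 -3.96 and -1.34 (adjusted p of the difference = 0.00781).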

How the data were processed

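Total RNA of 23 quadriceps muscles was sequenced, and the authors deposited raw read counts per gene, not normalised, in 1 table. The submitters' processing notes name FastQC, MultiQC, STAR 2.7.3a, HTSeq 0.12.4 and mm10, and counting used the strand. Of the read pairs, 12.9% to 15.2% in vehicle-treated and 10.7% to 13.6% in corticosterone-treated male mice lay in 5 summary rows, which were left out. TMM factors were 0.932 to 1.06 in vehicle-treated and 0.833 to 1.03 in corticosterone-treated male mice. GENCODE M21 named 55480 of 55573 gene IDs.

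Genes with over 20 counts, normalised by the median of ratios, in at least 4 mice of a group were tested (13049, of which 12613 autosomal). A gene of low level in 1 group could thus enter through another group in which it was high. edgeR 4.0.16 (R 4.3.3) fitted all 23 mice in 4 groups with TMM factors and the quasi-likelihood test, and p-values were adjusted by Benjamini-Hochberg over all tested genes. On data simulated for the male contrast over 13049 genes, 68% of changes of 1 and 96% of changes of 2 on the log2 scale were recovered, and 1.20% of calls were false. The simulation changed few genes, none of low level, and drew each gene independently. Shifts that run across many genes of a mouse, as in slow fibre or hepatocyte transcripts, were not simulated. These percentages therefore need not hold for the real data. Labels did not say whether mice shared a cage or extraction. Replicates differed by more than sampling noise, with a lowest chi-square per degree of freedom of 15.2. The counts carried no molecular identifiers, so floors cover counting error only.

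The 64 lists held 1594 genes, of which 1453 were tested on autosomes, 28 were not autosomal and 113 were under the filter or absent from the table. Members and lists were chosen with earlier results of these data known, and several (Fkbp5, Per1, Zbtb16, Trim63, Fbxo32, Foxo1, Foxo3, Klf15, Esr1 and others) were named by the study on the same mice, so no list is independent evidence of its direction. Text names anchor genes of each list, its 2 largest rises and falls, and the largest changes outside them with separated groups and a mean of at least 1 CPM. Some genes that this rule names are not reported here. The other members of counts of up to 5, given without SE, were named after their values were seen.

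Alternatives were DESeq2 1.42.0, limma 3.58.1 voom, median of ratios, filterByExpr, no filter, the male mice alone, other thresholds and leaving out each mouse. A slow and type 2A fibre score as covariate and leaving out M8, M9 and M12 were chosen after seeing the data.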

Additional observations from a re-analysis of the deposited data

Results flagged for a closer look

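For 388 groups of 6 mice, those of the 194 named genes, the highest or lowest mouse was set against the others with Dixon's test. In 23 groups it stood apart, where chance gives about 1 in 20. M8 was the mouse in 10 of them, all in the corticosterone group, with 92.9 CPM of Cox7a1, 68.2 CPM of Cox7a2, 82.8 CPM of Dlat, 62.0 CPM of Esrra, 1.94 CPM of Grb14, 96.0 CPM of Hsf1, 16.9 CPM of Mccc1, 17.9 CPM of Mrpl3, 38.3 CPM of Polrmt and 30.2 CPM of Wipi1. M8 also held the highest sum of hepatocyte markers. Other treated mice that stood apart were M10 for BB123696 (10.8 CPM), Gbe1 (125 CPM) and Smad3 (28.5 CPM), and M4 for Ccr2 (0.0551 CPM), Hba-a1 (293 CPM) and Rps2 (1120 CPM). Among vehicle-treated mice these were M5 for Calr (147 CPM), Ccr2 (2.25 CPM), Ctsk (6.33 CPM) and Pnmt (0.153 CPM), M1 for Ctsl (105 CPM), M3 for Foxo3 (22 CPM) and M7 for Retnla (10.8 CPM).

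The interaction of sex and treatment passed edgeR's test with Benjamini-Hochberg adjustment for 9 of the 194 named genes, against 0.714% of all autosomal genes. Many genes were named for the size of their male log2FC, which enters this difference, so their choice favours such calls. The male minus female difference of log2FC was 1.11 for Cdh15, 1.02 for Foxo3, 1.64 for Gadd45a, 1.90 for Pnmt and 1.61 for Sesn1, and -2.61 for Col3a1, -1.32 for Col6a1, -1.15 for Gsta4 and -1.78 for Serpinh1. The number of calls of this test varied with the mice left out, as given with the limits.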

How the results depend on the processing

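Of 3333 autosomal calls between male groups, 63.4% were also made without M8, M9 and M12, where 2164 genes passed, 1001 of them lower. An adjusted p under 0.05 gave 5025 genes, 2573 lower, and a log2FC beyond 1 in addition gave 955, of which 356 were higher and 599 lower. Leaving out each mouse gave 2810 to 3135 calls, 1420 to 1598 higher and 1387 to 1544 lower. DESeq2 gave 3851, limma-voom 4006 and no filter 2763, and every call shared with these settings kept its direction. The interaction of sex and treatment passed for 90 genes, and for 887 by DESeq2, 668 by limma-voom, 10 without a filter and between 1 and 862 without 1 mouse. No cause of these differences was tested. No paired analysis was possible because the male groups share no replicate number. For the interaction, whose numbers recur in both sexes, a replicate block gave 95 genes, but the numbers were not taken to pair the mice, since only 7 of 11 pairs had deviations correlated over 0.1 (5 of 6 vehicle and 2 of 5 corticosterone pairs, from -0.377 to 0.477). Of 194 named genes, 154 kept their call in all 20 alternatives. Of the called ones 14 lost the call without 1 mouse and 21 without M8, M9 and M12. Signs reversed only for genes that did not pass. Leaving out a mouse gave -0.079 to 0.28 for Arntl, -0.080 to 0.033 for Fbxo40 and -0.11 to 0.028 for Nr3c1, Fbxo40 was at 0.083 without M8, M9 and M12, and Myh7 was at 0.28 by limma-voom. Genes under about 1 CPM rest on few counts.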
